A study of Mus musculus with 12 samples.

Results

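The question here was whether cp-asiNRL had a different effect on retinal RNA in laser-injured eyes than in eyes without laser. All 12 libraries of the series entered this comparison, 3 in each of 4 groups of C57BL/6J mice. WT vehicle and WT cp-asiNRL were retinas of wild-type mice with no laser, and CNV vehicle and CNV cp-asiNRL were retinas with laser-induced choroidal neovascularisation (CNV). Every eye had an intravitreal injection, either 1 µl of cp-asiNRL at 6 µg/µl or vehicle, which was 0.5X PBS, so no group stands for an uninjected eye or for an RNA without a target. The interaction was the cp-asiNRL effect in CNV retina (CNV cp-asiNRL minus CNV vehicle) minus the cp-asiNRL effect in WT retina (WT cp-asiNRL minus WT vehicle). It is given in log2 units of CPM, the reads of a gene scaled to the library total, with 1 added, where a positive value means a more positive effect of cp-asiNRL under laser and 0 means equal effects. The labels state neither how many animals gave each library nor when tissue was taken, and p-values therefore reflect the spread from library to library, which may be technical.

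Nrl encodes a transcription factor that commits photoreceptor precursors to the rod fate, and photoreceptors that lack it express cone genes. The agent cp-asiNRL is a small interfering RNA of asymmetric, cell-penetrating design that targets the Nrl transcript. Laser burns that break the membrane under the pigment epithelium draw new vessels from the choroid and are followed by a glial and immune reaction in the overlying retina. Type I interferon induces genes for antiviral proteins, guanylate binding proteins and antigen presentation.

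Libraries held 51298466 to 69394486 reads in genes. Defining markers of rods, cones, bipolar cells, Muller glia, amacrine cells and ganglion cells were present in all 12 libraries. Pigment epithelium markers were low in all libraries (Rpe65, its visual cycle isomerase, at 1.79 to 4.08 CPM), and the lens crystallin Cryaa ranged from 0 to 3.40 CPM. In bulk retina, fewer cells of a type and less RNA per cell cannot be told apart. The library labelled as CNV cp-asiNRL replicate 2 differed from the other CNV cp-asiNRL libraries in the rod, glial and immune genes described below, and its level of Nrl, the targeted gene, lay within the CNV vehicle range. Whether its label and injection were as stated could not be checked, and every CNV cp-asiNRL mean and every interaction with all 12 libraries includes it. List medians and the main genes that rest on it are also given without it.

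No gene passed the threshold for the interaction, an adjusted p of 0.05 in limma (0 of 25619 genes tested, 0%). The smallest adjusted p was 0.788. At an unadjusted p under 0.05 there were 1591 genes where 5% would be 1281, of which 811 (3.17%) had a more positive effect under laser and 780 (3.04%) a more negative one. With library totals as the only scaling these counts were 1124 and 575, and the median interaction of all genes moved from 0.011 to 0.047. Of all genes tested, 53.6% lay above 0. The standard error of the interaction had a median of 0.12 and quartiles of 0.095 and 0.14. By itself, cp-asiNRL had 36 genes called in WT retina (0.141%) and 12 called in CNV retina (0.0468%). Both counts used a spread for each gene that was shared by the 4 groups, although the CNV libraries varied more.

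The direction of the members was uneven between gene groups. Of 25 lists with 395 entries, 378 entries were tested, 13 were too low to test and 4 symbols (Mx1, Mx2, Rigi and Bmal1) were not matched in the table. The genes of Rigi and Bmal1 were tested under their older symbols, Ddx58 and Arntl. In 3 lists, type I interferon response, MHC class I, and guanylate binding and immunity GTPases, every tested member lay above 0. The medians of the other lists ran from -0.15 (photoreceptor fate and rods) to 0.20 (Muller glia). None of the 25 lists held a called gene. The lists were drawn up with earlier results of these data known, so their direction is a description.

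**Figure D1:**
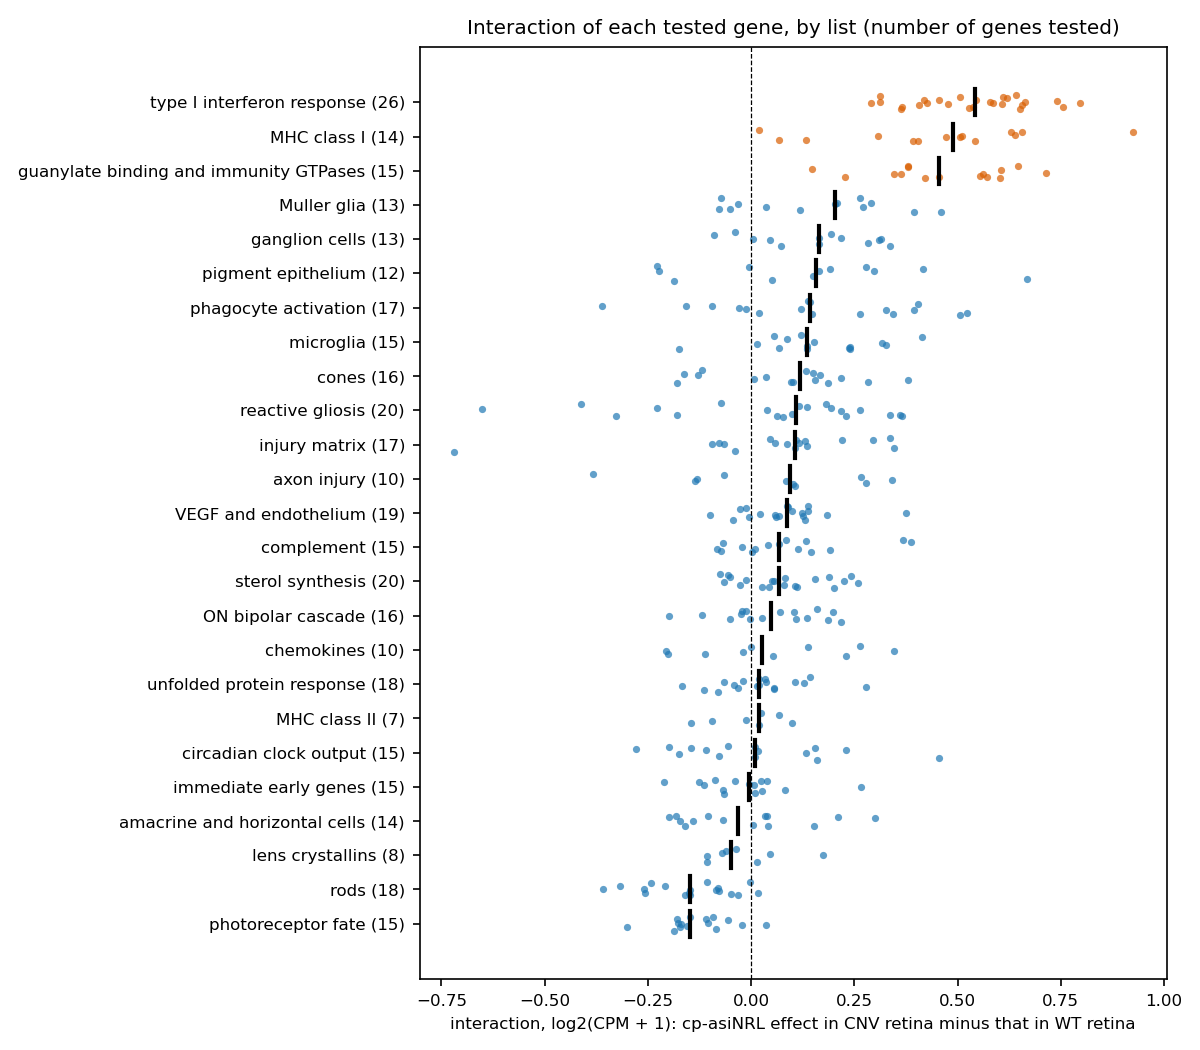
Interaction of each tested gene (points, horizontal axis in log2(CPM + 1) units) by gene list, with the number tested in brackets and the list median as a black bar. The interferon, MHC class I and guanylate binding lists (orange) lie wholly above 0, and the rod and photoreceptor fate lists have medians of -0.15.

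The promoters below show what some of the genes in the upper lists share outside their RNA level. They run from 250 bases before to 50 bases after the RefSeq gene start (GRCm38.p6), in the direction of the gene. Capitals mark the core of the interferon-stimulated response element, searched as GAAA, any 2 bases, then GAAA on either strand, with overlapping matches joined. Ifit3, an antiviral protein gene, lies at chr19:34583279-34583578 on the plus strand and has 2 matches, starting at -156 and -122. Isg15, a ubiquitin-like protein gene, lies at chr4:156200769-156201068 on the minus strand and has 3 overlapping matches from -78. Gbp3, a guanylate binding protein gene, lies at chr3:142559794-142560093 on the plus strand and has 2 overlapping matches from -45. H2-K1, an MHC class I heavy chain gene, lies at chr17:34000298-34000597 on the minus strand and is shown as a window without an exact match. The search took these exact letters only, so this window may still hold a variant of the element.
Ifit3: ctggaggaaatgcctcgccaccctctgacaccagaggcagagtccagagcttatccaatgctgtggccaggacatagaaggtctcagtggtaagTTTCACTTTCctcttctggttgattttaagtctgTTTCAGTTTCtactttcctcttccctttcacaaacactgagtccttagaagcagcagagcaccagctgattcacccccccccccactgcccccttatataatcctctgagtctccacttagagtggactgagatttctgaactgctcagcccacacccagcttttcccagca
Isg15: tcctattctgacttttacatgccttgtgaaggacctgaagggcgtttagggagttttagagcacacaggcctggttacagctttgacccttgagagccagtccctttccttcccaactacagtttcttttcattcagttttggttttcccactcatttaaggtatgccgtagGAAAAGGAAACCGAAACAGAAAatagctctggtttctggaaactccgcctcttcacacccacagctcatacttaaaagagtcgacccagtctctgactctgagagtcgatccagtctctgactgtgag
Gbp3: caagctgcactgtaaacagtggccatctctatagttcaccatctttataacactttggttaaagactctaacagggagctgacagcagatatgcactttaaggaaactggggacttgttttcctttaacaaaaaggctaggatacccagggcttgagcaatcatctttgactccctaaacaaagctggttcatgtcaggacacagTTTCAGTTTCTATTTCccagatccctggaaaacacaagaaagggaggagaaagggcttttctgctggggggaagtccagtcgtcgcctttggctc
H2-K1: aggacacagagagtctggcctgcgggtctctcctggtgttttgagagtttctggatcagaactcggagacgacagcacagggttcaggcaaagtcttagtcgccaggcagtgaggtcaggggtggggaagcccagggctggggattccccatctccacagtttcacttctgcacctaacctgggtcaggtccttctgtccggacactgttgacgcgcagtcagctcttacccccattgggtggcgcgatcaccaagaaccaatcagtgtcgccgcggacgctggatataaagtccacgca

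Among members with a RefSeq window, the letters were found for 11 of 19 interferon response genes (57.9%), 9 of 10 guanylate binding and immunity GTPase genes (90%), 3 of 12 MHC class I genes (25%) and 0 of 11 rod genes. The share was 3.83% of the 18365 tested genes with a window and 3.44% of all 32851 windows. These are counts of exact letters in a window, and variants of the element were not counted. They follow from which genes were listed and not from the libraries, so they do not bear on the interaction. A share of 3.83% could also give 0 of 11 rod genes. The counts say nothing about which factors were bound in these retinas.

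Nrl itself (chromosome 14, 55756435 to 55762438, minus strand, GRCm39) had an interaction near 0. Its level was 560, 505 and 555 CPM in WT vehicle, 397, 418 and 467 in WT cp-asiNRL, 449, 423 and 524 in CNV vehicle, and 324, 483 and 263 in CNV cp-asiNRL. The WT groups did not overlap, whereas in CNV retina the library labelled as CNV cp-asiNRL replicate 2 lay within the vehicle range. Mean Nrl was 20.8% lower with cp-asiNRL in WT retina and 23.3% lower in CNV retina, or 36.9% lower in CNV retina without the library labelled as CNV cp-asiNRL replicate 2. The interaction was -0.08 (SE 0.22, 95% interval -0.56 to 0.39, adjusted p = 0.952). It was -0.33 without the library labelled as CNV cp-asiNRL replicate 2 and 0.11 without CNV cp-asiNRL replicate 3, so its sign rested on single libraries.

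The rod genes, which encode proteins of rod phototransduction such as transducin, phosphodiesterase and the cation channel, had negative cp-asiNRL effects in both states, and those in CNV retina were the more negative. All 18 had an effect below 0 in WT retina (median -0.18) and all 18 in CNV retina (median -0.35). In the interaction 17 of 18 lay below 0, with a median of -0.15 where that of all genes was 0.011, and 0 were called or had an unadjusted p under 0.05. Sag, the rod arrestin (chromosome 1, 87731402 to 87772880, GRCm39), had the most negative value at -0.36 (SE 0.20, 95% interval -0.78 to 0.06), and -0.55 with CNV cp-asiNRL replicate 2 left out. Sag stood at 1843, 1765 and 1824 CPM in WT vehicle, 1704, 1811 and 1822 in WT cp-asiNRL, 1880, 1934 and 2051 in CNV vehicle, and 1136, 1964 and 1504 in CNV cp-asiNRL. Replicates 1 and 3 of CNV cp-asiNRL were below the 10 other libraries, and replicate 2 lay within CNV vehicle.

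Gngt1 (the rod transducin gamma subunit), Rp1 (a microtubule protein of the outer segment axoneme) and Cnga1 (the rod channel subunit) were at -0.32, -0.26 and -0.24. Gnat1, the rod transducin alpha subunit, was at -0.05. The median of the rod list was -0.34 without the library labelled as CNV cp-asiNRL replicate 2 and 0.018 without CNV cp-asiNRL replicate 3. Against the mean of WT vehicle, the mean level of the list was lower by 0.31, 0.17 and 0.11 in WT cp-asiNRL, by 0.11, 0.27 and 0.04 in CNV vehicle, and by 0.61, 0.08 and 0.77 in CNV cp-asiNRL. Replicates 1 and 3 of CNV cp-asiNRL were thus the lowest of the 12 libraries, and replicate 2 lay within the range of CNV vehicle.

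Among 15 photoreceptor fate genes, which share Nrl and its target factor Nr2e3 with the rod list and Thrb and Rxrg with the cone list, 14 lay below 0 with a median of -0.15, which was -0.25 with CNV cp-asiNRL replicate 2 left out and -0.070 with replicate 3 left out. Casz1, a zinc finger factor, was the only one at an unadjusted p under 0.05 (-0.30, SE 0.11, adjusted p = 0.788). Casz1 read 291, 317 and 272 CPM in WT vehicle, 292, 304 and 297 in WT cp-asiNRL, 296, 319 and 335 in CNV vehicle, and 249, 294 and 244 in CNV cp-asiNRL. Every CNV cp-asiNRL library was below every CNV vehicle library, and the WT groups overlapped. Samd7, a repressor that keeps cone genes silent in rods, fell with cp-asiNRL in CNV retina (-0.47, adjusted p = 0.034) and was at -0.28 in WT retina (adjusted p = 0.11), an interaction of -0.19 (SE 0.10, adjusted p = 0.788). Pias3, a SUMO ligase that acts with Nr2e3, was at -0.18 and Thrb, the thyroid hormone receptor of cone patterning, at -0.18. Nr2e3 was at -0.15 (SE 0.19).

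The cone genes leaned the other way. Of 16, 12 lay above 0 with a median of 0.12, 2 of them at an unadjusted p under 0.05 and 0 called. Their median cp-asiNRL effect was -0.15 in WT retina and -0.06 in CNV retina, both below 0, with the one under laser nearer to 0. Pde6h, the inhibitory subunit of the cone phosphodiesterase (chromosome 6, 136929216 to 136940483, GRCm39), was at 40.2, 39.0 and 36.1 CPM in WT vehicle, 27.96, 27.5 and 32.8 in WT cp-asiNRL, 31.02, 30.5 and 34.1 in CNV vehicle, and 29.0, 32.9 and 33.8 in CNV cp-asiNRL. Only WT vehicle stood apart, above the 9 other libraries. The interaction of Pde6h was 0.38 (SE 0.11, 95% interval 0.15 to 0.61, adjusted p = 0.788), and its adjusted p in WT retina was 0.068. Gngt2, the cone transducin gamma subunit, also had WT vehicle above all other libraries, with 18.0 to 18.6 CPM in WT vehicle and 11.6 to 16.4 in all others (interaction 0.28, SE 0.13, adjusted p = 0.788). Pde6c, the catalytic subunit, was at 0.17, the cone arrestin Arr3 at 0.19, the short wave opsin Opn1sw at 0.13 and the cone transducin alpha subunit Gnat2 at 0.10. The 4 members below 0 were Thrb (-0.18), Grk1 (-0.16), Guca1a (-0.13) and the middle wave opsin Opn1mw (-0.12). The median of the list was 0.044 without the library labelled as CNV cp-asiNRL replicate 2.

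**Figure D2:**
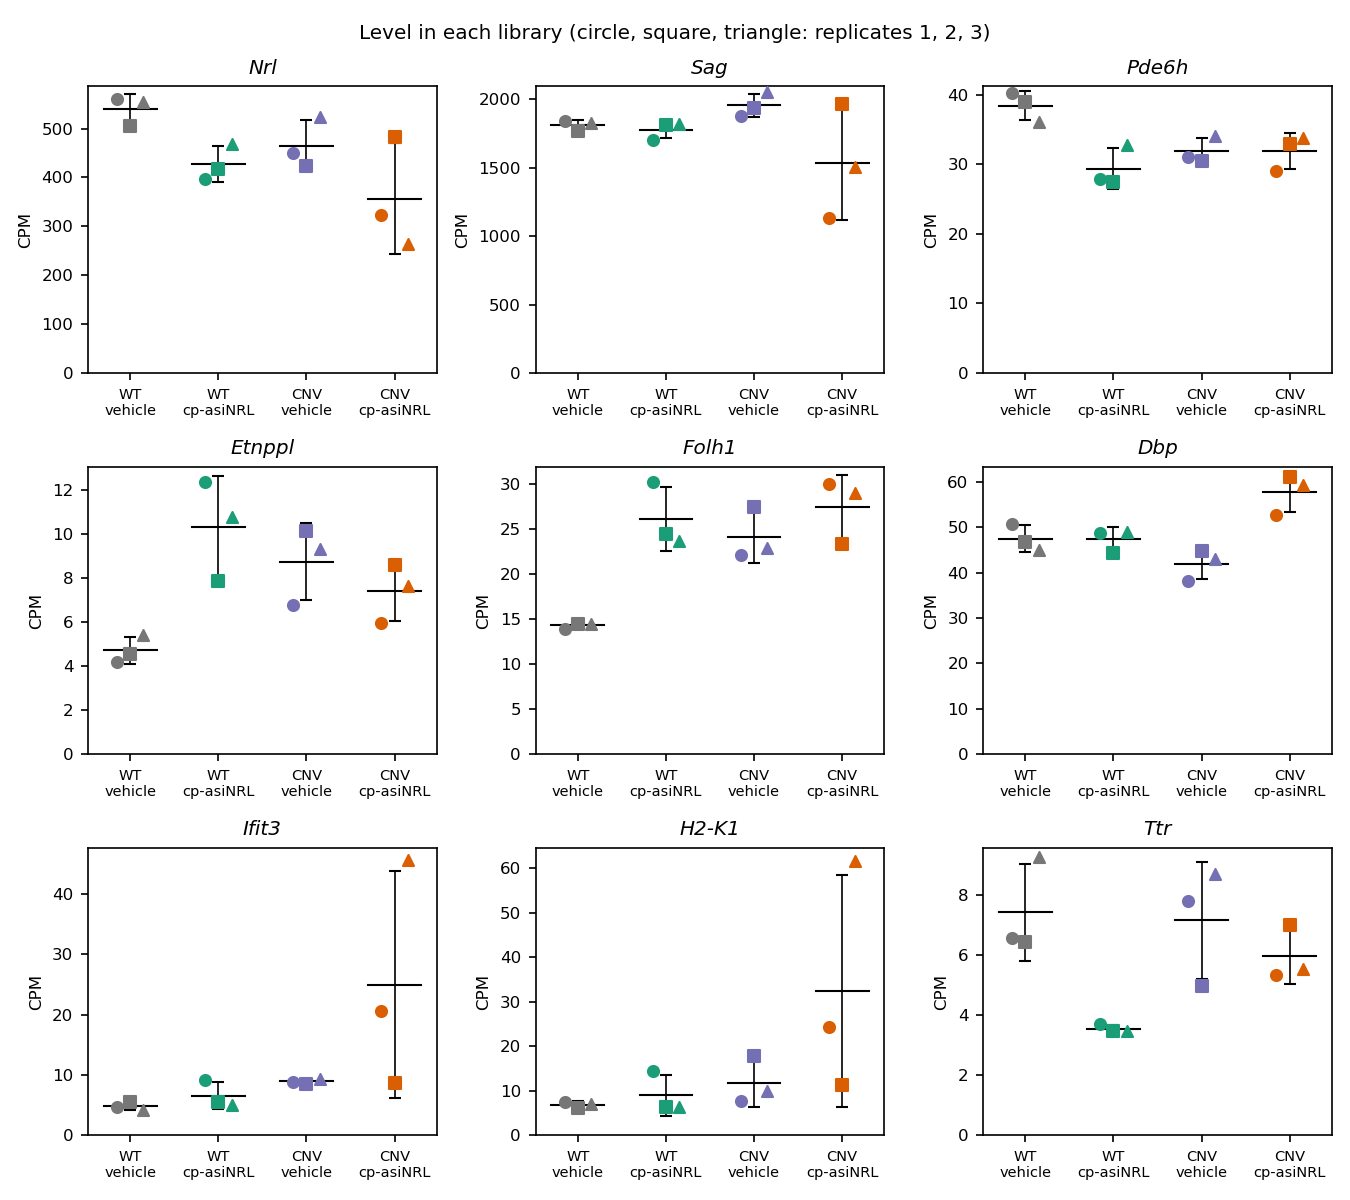
Level of 9 genes in CPM (vertical axes from 0) in each library of the 4 groups; bars are group means and whiskers SD of 3 libraries. WT vehicle stands apart for Pde6h, Etnppl and Folh1, CNV cp-asiNRL for Dbp, and replicates 1 and 3 of CNV cp-asiNRL for Ifit3 and H2-K1.

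Interferon response genes had the largest median of the 25 lists with all 12 libraries weighted equally, although with voom quality weights the guanylate binding list was above it (0.94 against 0.86). All 26 tested members lay above 0, from 0.29 to 0.80 with a median of 0.54, and 0 were called, with 2 at an unadjusted p under 0.05. Their median cp-asiNRL effect was 0.24 in WT retina and 0.74 in CNV retina. Ifit3 (chromosome 19, 34560519 to 34566382, GRCm39), whose promoter is printed above, had 4.66, 5.47 and 4.17 CPM in WT vehicle, 9.12, 5.55 and 4.94 in WT cp-asiNRL, 8.86, 8.51 and 9.37 in CNV vehicle, and 20.6, 8.69 and 45.6 in CNV cp-asiNRL. Replicates 1 and 3 of CNV cp-asiNRL lay above all other libraries, and replicate 2 lay within CNV vehicle. The interaction of Ifit3 was 0.76 with a standard error of 0.53 (95% interval -0.37 to 1.88, adjusted p = 0.808). It was 1.33 without the library labelled as CNV cp-asiNRL replicate 2 and 0.19 without CNV cp-asiNRL replicate 3.

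Isg15 had 0.61 (SE 0.24, adjusted p = 0.788) on few reads, a mean of 32.5 per library, and it overlaps Gm46878 on the other strand. Ifi35, an interferon-induced protein, had 0.46 (SE 0.21, adjusted p = 0.788). Irf7, which amplifies interferon transcription, was at 0.62, the oligoadenylate synthetase-like gene Oasl2 at 0.65, the membrane protein gene Ifi27 at 0.48, and Ifit1, which binds foreign RNA, at 0.66 with a standard error of 0.65. Ifit1 is covered by Ifit1bl1 and Ifi27 by Ifi27l2a, both on the other strand, and reads of overlapping genes could not be told apart in this table. Mean reads were 379.5 for Ifit1 against 957.8 for Ifit1bl1, and 179.2 for Ifi27 against 219.1 for Ifi27l2a.

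All 15 guanylate binding and immunity GTPase genes lay above 0 (median 0.46, range 0.15 to 0.71, 0 called). Gbp3 had 1.64, 1.55 and 1.91 CPM in WT vehicle, 3.67, 2.37 and 1.44 in WT cp-asiNRL, 3.06, 3.41 and 2.98 in CNV vehicle, and 6.60, 4.07 and 15.02 in CNV cp-asiNRL, an interaction of 0.71 (SE 0.43, adjusted p = 0.789), or 1.09 and 0.26 with replicate 2 or 3 of CNV cp-asiNRL left out. All 3 CNV cp-asiNRL libraries of Gbp3 were above the CNV vehicle libraries, by the smallest margin in replicate 2. Gbp2 was at 0.60, Gbp4 at 0.57, Igtp at 0.61 and Ifi47 at 0.56, the latter pair being GTPases that act on membranes around pathogens. Some members, such as Tgtp1 and Tgtp2, are near-identical copies, and their values are uncertain because reads may be split between them.

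All 14 MHC class I genes lay above 0 (median 0.49, range 0.020 to 0.92, 0 called). H2-K1 (chromosome 17, 34214986 to 34219321, GRCm39) had 7.48, 6.04 and 7.02 CPM in WT vehicle, 14.3, 6.18 and 6.19 in WT cp-asiNRL, 7.55, 17.8 and 9.81 in CNV vehicle, and 24.3, 11.3 and 61.6 in CNV cp-asiNRL. Its interaction was 0.92 with a standard error of 0.63 (95% interval -0.42 to 2.26, adjusted p = 0.805), and the CNV groups overlapped. It was 1.49 and 0.31 with replicate 2 or 3 of CNV cp-asiNRL left out. Psmb10, an immunoproteasome subunit, had the smallest p of the list (0.47, SE 0.18, adjusted p = 0.788), with 2.72 to 3.17 CPM in WT vehicle, 1.70 to 2.34 in WT cp-asiNRL, 2.04 to 3.07 in CNV vehicle and 2.32 to 3.49 in CNV cp-asiNRL. Psmb10 thus had a lower level in WT cp-asiNRL than in WT vehicle, and CNV cp-asiNRL replicate 3 was its highest library at 3.49 CPM. Its interaction was 0.57 and 0.35 with replicate 2 or 3 of CNV cp-asiNRL left out. Psmb8, another immunoproteasome subunit, was at 0.51 and the peptide transporter subunit Tap2 at 0.40.

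These 3 immune lists depended on the CNV cp-asiNRL libraries. Without replicate 3 of that group the medians were 0.17 for interferon response, 0.098 for guanylate binding and immunity GTPases and 0.15 for MHC class I genes. Without the library labelled as replicate 2 they were 0.93, 0.88 and 0.88. The mean level of the interferon list above WT vehicle was 0.68, 0.13 and 0.02 in WT cp-asiNRL, 0.40, 0.61 and 0.37 in CNV vehicle, and 1.33, 0.45 and 2.03 in CNV cp-asiNRL. The microglia and gliosis lists were also highest in replicates 1 and 3 of CNV cp-asiNRL, but did not follow the interferon list in every library. CNV vehicle replicate 2 was at 1.41 for gliosis, near the 1.55 and 1.74 of those libraries. For microglia it was at 0.84 against 1.06 and 1.15, and for interferon response at 0.61 against 1.33 and 2.03. The summed level of 15 microglia genes ranged from 59.6 to 64.3 CPM in WT vehicle, 65.0 to 92.3 in WT cp-asiNRL, 73.8 to 106 in CNV vehicle and 75.2 to 131 in CNV cp-asiNRL. That of 20 reactive gliosis genes ranged from 314 to 333, 365 to 499, 398 to 711 and 424 to 858 CPM in the same order. None of these microglia or gliosis genes was at 0 in any library, and 14 of 15 and 14 of 20 lay above 0 in the interaction, with medians of 0.14 and 0.11. Their part in the interferon values was not tested.

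**Figure D3:**
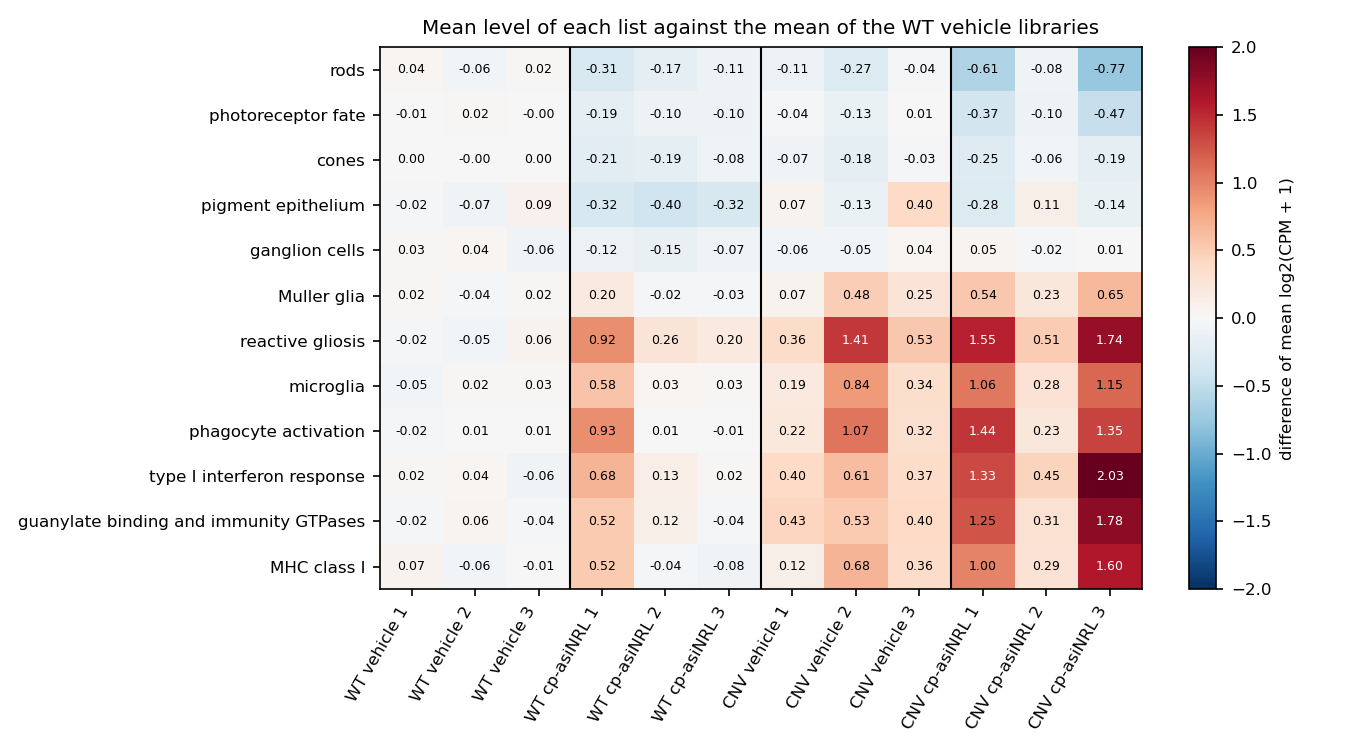
Mean level of 12 gene lists in each library (columns, 3 per group), as the difference in mean log2(CPM + 1) from the mean of the WT vehicle libraries; red is higher and blue lower. Among CNV cp-asiNRL libraries, replicates 1 and 3 are low for rods (-0.61 and -0.77) and high for interferon response (1.33 and 2.03), and replicate 2 is near the CNV vehicle libraries (-0.08 and 0.45).

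Gliosis and phagocyte genes varied little within WT vehicle and more within the other 3 groups. Gfap, the glial filament raised in stressed Muller cells, had 6.55, 5.95 and 6.52 CPM in WT vehicle, 16.1, 9.002 and 6.44 in WT cp-asiNRL, 8.65, 27.6 and 10.02 in CNV vehicle, and 41.6, 10.7 and 40.7 in CNV cp-asiNRL. Its interaction was 0.36 with a standard error of 0.64 (adjusted p = 0.925), or 0.98 and 0.060 with replicate 2 or 3 of CNV cp-asiNRL left out. Lcn2, a secreted lipocalin, and Fgf2, a growth factor that protects photoreceptors, were at -0.65 (SE 0.40) and -0.41 (SE 0.42). Among 17 phagocyte activation genes 12 lay above 0 with a median of 0.14. Cst7, a cathepsin inhibitor, had the smallest p of the list (0.34, SE 0.12, adjusted p = 0.788), and Cd68, a lysosomal membrane protein, was at 0.40. Of the 5 members below 0, Lyz2 was the lowest at -0.36 (SE 1.41), and Cd14 was at -0.16. The medians of the gliosis, microglia and phagocyte lists were -0.17, -0.014 and 0.033 without CNV cp-asiNRL replicate 3, and 0.46, 0.43 and 0.38 with replicate 2 left out instead.

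The single genes with the smallest p-values followed other patterns of groups. Etnppl, an enzyme that breaks down phosphoethanolamine and is typical of astrocytes (chromosome 3, 130411097 to 130429399, GRCm39), had the smallest of all genes. It had 4.17, 4.55 and 5.40 CPM in WT vehicle, 12.3, 7.83 and 10.8 in WT cp-asiNRL, 6.78, 10.1 and 9.30 in CNV vehicle, and 5.96, 8.58 and 7.62 in CNV cp-asiNRL. WT vehicle was below the 9 other libraries, and the CNV groups overlapped. Etnppl rose by 0.97 with cp-asiNRL in WT retina (adjusted p = 0.040) and was at -0.21 in CNV retina (adjusted p = 0.52), an interaction of -1.18 (SE 0.23, 95% interval -1.67 to -0.69, adjusted p = 0.788).

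Folh1, which encodes glutamate carboxypeptidase II, a peptidase that releases glutamate from N-acetylaspartylglutamate (chromosome 7, 86365733 to 86425171, GRCm39), also had WT vehicle as the low group. Its level was 13.9, 14.5 and 14.5 CPM in WT vehicle, 30.1, 24.4 and 23.7 in WT cp-asiNRL, 22.1, 27.5 and 22.9 in CNV vehicle, and 29.9, 23.3 and 29.0 in CNV cp-asiNRL. Folh1 rose by 0.82 in WT retina (adjusted p = 0.017) and was at 0.18 in CNV retina (adjusted p = 0.41), an interaction of -0.64 (SE 0.15, 95% interval -0.96 to -0.33, adjusted p = 0.788). Jchain, which joins polymeric immunoglobulins, also had WT vehicle apart, at 9.01 to 9.43 CPM against 10.9 to 12.8 in all others (interaction -0.39). In each of these genes the 3 other groups overlapped. Optc, the vitreous proteoglycan opticin, differed in having a high CNV vehicle group, with 1.45, 1.92 and 1.76 CPM, against 1.33, 0.392 and 0.622 in CNV cp-asiNRL and 0.302 to 0.580 across the WT libraries (interaction -0.72, SE 0.20, adjusted p = 0.788).

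The other named genes with negative values and small p-values were Zfp36l2, which promotes decay of AU-rich transcripts (-0.41), Tob1, an antiproliferative factor (-0.33), Hnrnpa2b1, an RNA-binding protein (-0.37), the long noncoding RNA Chaserr (-0.44), which overlaps Chd2 on the same strand, and Tmem243 (-0.25). Each had an adjusted p of 0.788. Hnrnpa2b1 showed opposite effects of similar size, 0.17 in WT retina and -0.20 in CNV retina, neither of them called.

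Positive values with small p-values included a clock output gene. Dbp, a transcription factor driven by the circadian clock (chromosome 7, 45354518 to 45359627, GRCm39), was at 50.8, 46.8 and 45.01 CPM in WT vehicle, 48.9, 44.3 and 49.1 in WT cp-asiNRL, 38.2, 44.8 and 43.1 in CNV vehicle, and 52.9, 61.1 and 59.4 in CNV cp-asiNRL. All 3 CNV cp-asiNRL libraries, replicate 2 included, were above the 9 others. Dbp rose with cp-asiNRL in CNV retina (0.45, adjusted p = 0.039) and was at 0.00 in WT retina (adjusted p = 0.99), an interaction of 0.45 (SE 0.10, 95% interval 0.24 to 0.67, adjusted p = 0.788). Sphk2, a sphingosine kinase, overlaps Dbp by 741 bases on the other strand and had 0.43 (SE 0.09), so these are not independent values. St8sia2, which adds polysialic acid to the neural cell adhesion molecule, rose in CNV retina (0.50, adjusted p = 0.018) from 23.5, 24.1 and 25.04 to 34.6, 32.1 and 37.5 CPM, and had an interaction of 0.34 (SE 0.09, adjusted p = 0.788). Fyb, an adaptor of immune cell signalling (0.42), Myh14, a nonmuscle myosin heavy chain (0.43), Maged2 (0.36), Slc22a17, a lipocalin receptor (0.36), and Rtl6, a retrotransposon-derived gene (0.36), each had their lowest group mean in WT cp-asiNRL and adjusted p = 0.788.

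Of 15 circadian genes 8 lay above 0, with a median of 0.0090. Besides Dbp, Nr1d1, a repressor within the clock, was at 0.23, and Cry1 and Arntl, a repressor and an activator of the clock, were at -0.28 and -0.20, each at an unadjusted p under 0.05 and an adjusted p of 0.788. Nr1d1 had 53.0, 52.4 and 53.3 CPM in CNV cp-asiNRL, above the CNV vehicle range of 46.8 to 49.5. Arntl had 174, 174 and 153 CPM in CNV cp-asiNRL, below the CNV vehicle range of 179 to 193. The labels give no hour of tissue collection, so its part in these values was not tested. Nr1d1, Cry1 and Arntl were chosen after their values were seen.

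**Figure D4:**
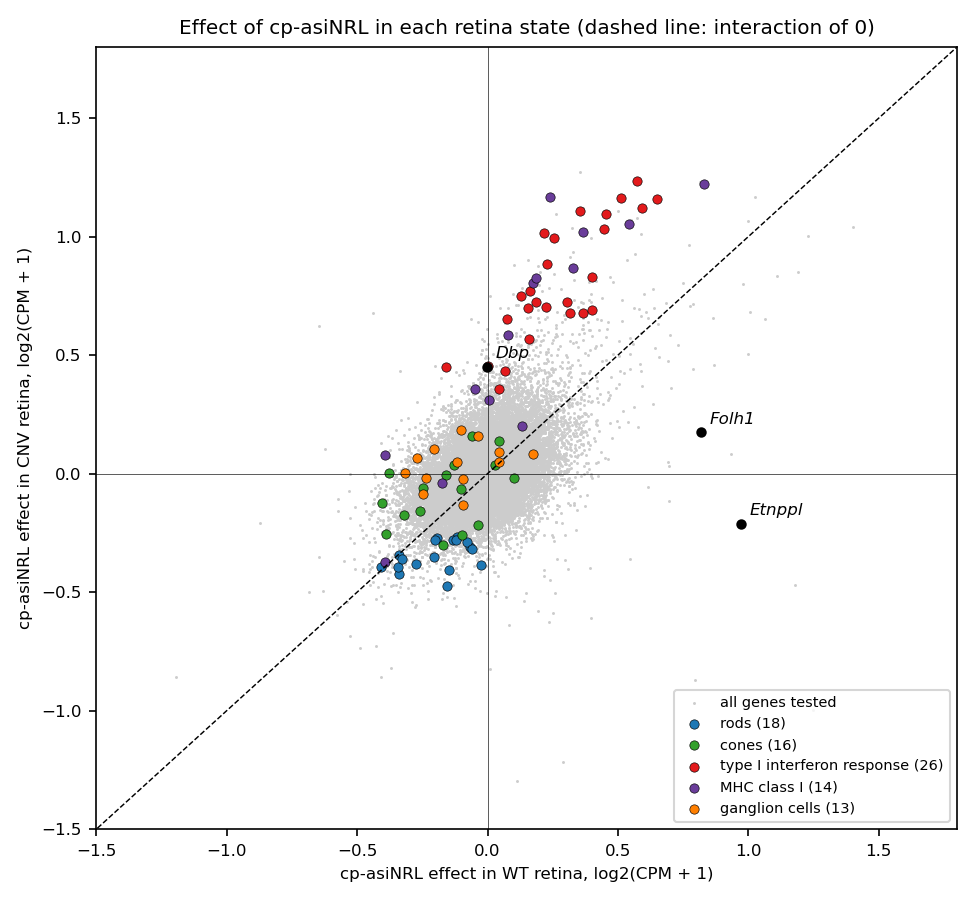
cp-asiNRL effect in WT retina (horizontal axis) against that in CNV retina (vertical axis), both in log2(CPM + 1) units, for all genes tested (grey) and members of 5 lists. Genes on the dashed line have an interaction of 0; the interferon genes lie above it, and Etnppl and Folh1 below it.

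The ganglion cell, Muller glia and pigment epithelium lists had smaller positive medians than the immune lists. Of 13 ganglion cell genes, 11 lay above 0 with a median of 0.17 and 4 at an unadjusted p under 0.05. Nefh, the heavy neurofilament, had 32.8, 35.1 and 31.2 CPM in WT vehicle, 24.8, 26.9 and 27.4 in WT cp-asiNRL, 30.0, 28.9 and 32.1 in CNV vehicle, and 28.8, 34.2 and 28.3 in CNV cp-asiNRL. The WT groups did not overlap and the CNV groups did, with an interaction of 0.32 (SE 0.10, adjusted p = 0.788). Nefh overlaps Ap1b1 and Gm35321 on the other strand. Tubb3, a neuronal tubulin, was at 0.34, Sncg, gamma-synuclein, at 0.31 and Nefm, the medium neurofilament, at 0.28. Pou4f1, Slc17a6 and Pou4f2 were at 0.17, 0.07 and 0.0048, and the 2 members below 0 were Rbpms (-0.09) and Isl2 (-0.04).

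Of 13 Muller glia genes, 9 lay above 0 with a median of 0.20. Slc1a3, the glutamate transporter of these cells, was at 0.29 and Rlbp1, their retinaldehyde-binding protein, at 0.27, both at an unadjusted p under 0.05 and an adjusted p of 0.788. Rlbp1 had 125 to 131 CPM in WT vehicle, 107 to 111 in WT cp-asiNRL, 116 to 141 in CNV vehicle and 115 to 141 in CNV cp-asiNRL, so WT groups did not overlap and CNV groups did. Car14, a carbonic anhydrase, was at 0.20 and Abca8a, a lipid transporter, at 0.12. The 4 members below 0 were Aqp4 (-0.08), Cp (-0.07), Sox9 (-0.05) and Glul (-0.03). The median of the list was 0.067 without CNV cp-asiNRL replicate 3.

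Of 12 pigment epithelium genes, 8 lay above 0 with a median of 0.16 and 3 at an unadjusted p under 0.05. Ttr, the transthyretin that carries retinol with its binding protein, had 6.57, 6.44 and 9.29 CPM in WT vehicle, 3.69, 3.49 and 3.47 in WT cp-asiNRL, 7.82, 4.96 and 8.72 in CNV vehicle, and 5.33, 7.02 and 5.55 in CNV cp-asiNRL. WT cp-asiNRL was the low group and did not overlap any other. The interaction of Ttr was 0.67 (SE 0.23, 95% interval 0.18 to 1.16, adjusted p = 0.788). Lrat, which esterifies retinol, was at 0.42, Rdh5, which oxidises 11-cis retinol, at 0.28 and Rpe65 at 0.19. Lrat is covered by Rbm46os on the other strand, which had a mean of 137.2 reads against 117.2 for Lrat. The 4 members below 0 were Tyr (-0.23), Best1 (-0.22), Mlana (-0.19) and Dct (-0.0049). The median of the list was -0.0066 without CNV vehicle replicate 2 and 0.041 without CNV cp-asiNRL replicate 2, and the share of pigment epithelium that came with each retina was not tested.

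The count of called genes changed when 1 library was left out. Without the library labelled as CNV cp-asiNRL replicate 2, 12 of 25560 genes passed (0.0469%), with a smallest adjusted p of 0.0386. This left 2 libraries in CNV cp-asiNRL. The library was singled out after its values were seen, so the adjusted p-values without it are a description. The standard error of each of the 12 genes was smaller than with all 12 libraries. Each of these genes had an adjusted p of 0.788 with all 12 libraries, and all but Etnppl were chosen after their values were seen. Etnppl was among them (-1.29, adjusted p = 0.0499), as was Ip6k2, an inositol hexakisphosphate kinase (-0.85, adjusted p = 0.0394), with 92.7, 98.4 and 95.2 CPM in WT vehicle, 174, 139 and 130 in WT cp-asiNRL, 112, 128 and 137 in CNV vehicle, and 113, 154 and 101 in CNV cp-asiNRL. WT vehicle was again the low group. The other genes with a negative value were Kpna2, a nuclear import receptor (-0.63), Ebpl (-0.52), Crlf3 (-0.50), Usp2, a deubiquitinase (-0.49), Gnb5, a G protein beta subunit (-0.48), and the gene models Gm32783 (-0.77), Gm39325 (-0.67) and Gm19531 (-0.64), the last pair overlapping Usp2 and Gnb5. Kpna2 was at 24.9 and 20.7 CPM in CNV cp-asiNRL replicates 1 and 3 and at 36.6 in replicate 2, against 34.8 to 41.8 in the 9 other libraries.

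The positive pair was Rnf213, an interferon-inducible ubiquitin ligase (0.91, adjusted p = 0.046), and Oas3, an oligoadenylate synthetase (0.78, adjusted p = 0.0477). Rnf213 had 57.4, 56.5 and 51.4 CPM in WT vehicle, 75.4, 60.2 and 55.8 in WT cp-asiNRL, 62.2, 68.9 and 60.4 in CNV vehicle, and 120, 71.4 and 161 in CNV cp-asiNRL. With all 12 libraries their interactions were 0.60 (SE 0.28) and 0.49 (SE 0.25). Oas3 lay at or below 0.254 CPM outside replicates 1 and 3 of CNV cp-asiNRL, where it had 0.763 and 1.27. Its WT libraries, at 0.017 to 0.106 CPM, were all below the level set for keeping a gene. Oas3 was therefore tested because of CNV libraries alone. Its WT effect rested on very few reads, so its adjusted p does not establish a difference between WT and CNV retina.

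**Figure D5:**
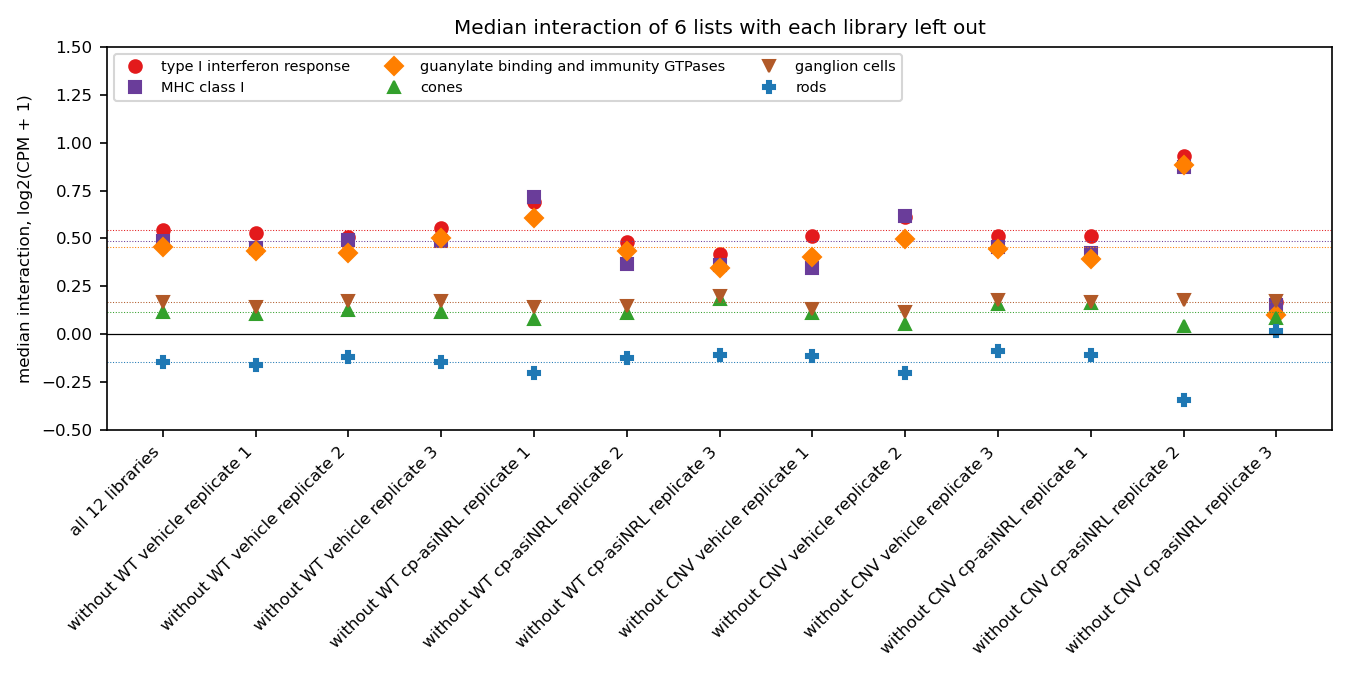
Median interaction (vertical axis, log2(CPM + 1) units) of 6 gene lists with all 12 libraries and with each library left out; dotted lines mark the values with all 12. The 3 immune lists lie between 0.098 and 0.17 without CNV cp-asiNRL replicate 3 and between 0.88 and 0.93 without replicate 2, and the rod list runs from 0.018 to -0.34.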

How the data were processed

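RNA of 12 retinal libraries was made into strand-marked mRNA libraries per the labels' protocols, and the submitters' processing notes name HISAT2 2.1.0, featureCounts 1.6.0 and mm10. The deposited signal, headed FPKM per the file headers, is reads divided by gene span: signal times length was whole within 1e-06 for all 482424 values (40202 genes). The table's coordinates are those of GRCm39. Nested opposite-strand genes had a median 0.784 of their host's read density (2474 pairs), so strands were not separated and overlapping genes are uncertain. Of 82 genes checked for this, 44 overlapped another gene, and not all of them are marked above.

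Recovered reads were scaled to CPM with trimmed-mean factors (trims of 30% and 5%). Genes with a CPM equal to 10 reads at the median library in at least 3 libraries were kept (25619). log2(CPM + 1) was fitted with limma 3.58.1 (trend) in R 4.3.3, as 4 group means over 12 libraries with Benjamini-Hochberg adjustment at 0.05. This scale understates changes of low genes. The fit was also run on simulated data, but no result is given here, so this does not bear on the unequal spread of WT and CNV libraries. Named genes were Nrl, a fixed set, the 8 smallest p-values in each direction among named genes whose mean log2(CPM + 1) was 2 or more, and, for each described list, up to 4 genes by p-value, of which not every gene is reported here. The members, lists and rules were chosen with earlier results of these data known. The chi-square per gene between replicates ran from 4.20 to 49.6, so none was a copy. It was 8.06 or less within the WT groups and 10.2 or more within the CNV groups. The fit shared 1 spread per gene over the 4 groups, so with all 12 libraries the WT and CNV effects had the same standard error. Alternatives covered scaling, filter, pseudocount, voom, library weights, gene span, replicate block and leaving out each library. Promoter sequences are from RefSeq (GRCm38.p6), where not every gene has a window.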

Additional observations from a re-analysis of the deposited data

How the results depend on the processing

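Across 23 alternatives (scaling, low-value filter, pseudocount, limma voom, library weights, gene span, replicate block and each library left out), 0 genes were called for the interaction in 22, and 12 without the library labelled as CNV cp-asiNRL replicate 2, a range of 0 to 12 when 1 library was left out. Weighted fits gave that library 0.265 (voom with sample quality weights) and 0.289 (array weights) and found 3302 and 3623 genes at an unadjusted p under 0.05, with 0 called. Correlations of deviations between same-numbered libraries ran from -0.52 to 0.31, and 4 of 18 pairs were over 0.1, so they showed no consistent pairing. They cannot exclude a batch shared by replicate number, since no values for differently numbered libraries are given. With the replicate block 0 genes were called and 1202 had an unadjusted p under 0.05. With 1 library left out, list medians ranged from -0.34 to 0.018 for rods, 0.044 to 0.18 for cones, 0.11 to 0.20 for ganglion cells and 0.098 to 0.88 for guanylate binding and immunity GTPases. The cone median was 0.025 with voom quality weights and 0.030 with array weights, the guanylate binding median 0.94 with voom quality weights and 0.66 with array weights, the ganglion cell median 0.21 with library totals alone, and the pigment epithelium median -0.037 with array weights. In the same 2 weighted fits the medians were 0.86 and 0.72 for interferon response, 0.80 and 0.62 for MHC class I, -0.26 and -0.24 for rods, -0.22 and -0.21 for photoreceptor fate, 0.46 and 0.35 for microglia, 0.31 and 0.38 for phagocyte activation, and 0.29 and 0.34 for reactive gliosis. Signs turned for Gnat1 with library totals alone (0.0018) and for Gnat2 with voom quality weights (-0.019) and array weights (-0.020). With 1 library left out the ranges were -0.33 to 0.11 for Nrl, -0.27 to 0.11 for Gnat1, -0.35 to 0.0099 for Nr2e3, -0.0062 to 0.25 for Opn1sw, -0.0011 to 0.31 for Arr3 and -0.013 to 0.17 for Gnat2. The cause was not tested. Few reads stood behind some named genes, with a mean of 32.5 per library for Isg15.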
